A study of Homo sapiens with 2 samples.

Results

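EGFR, the receptor for epidermal growth factor, lies on the short arm of chromosome 7 near the centromere, and 10 of the genes around it are described here: HUS1, UPP1, LANCL2, VOPP1, MRPS17, NIPSNAP2, PSPH, CCT6A, SUMF2 and CHCHD2. They were taken from the stretch of 25 neighbouring genes whose median difference between the A549/DDP and A549 arrays was the highest along the genome, so the members were chosen by these same differences in signal, and their shared direction is a description and not a test. All 10 were measured, by 17 probe sets that each name 1 gene, out of 19775 genes on the arrays. The cells were A549/DDP, a cisplatin-resistant derivative of A549, and the parental line A549, a human lung adenocarcinoma line. Each line was grown in conventional culture, detached with trypsin and read on 1 Affymetrix HG-U133 Plus 2.0 array, so no value has a replicate, and no spread between cultures is known.

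Genes that sit side by side on a chromosome can gain or lose copies together. The neighbourhood of EGFR is known for this in glioblastoma, where a gained segment carries EGFR with some of its neighbours, and 2 of the members were first named for it: VOPP1 was called ECOP, for a protein co-amplified and overexpressed with EGFR, and NIPSNAP2 was called GBAS, for glioblastoma amplified sequence. The 10 genes have unrelated jobs, from DNA damage checkpoints to protein folding and mitochondrial translation.

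ZNF300, the gene that the study follows as higher in A549/DDP, went the other way on these arrays. Its log2 signal was 5.76 on the array labelled A549/DDP, under the median of that array, and 7.59 on the A549 array. With the first value raised to the array median the difference was -1.41, which is a bound. Every direction here therefore refers to the labels of the arrays. The labels of the A549/DDP sample also differ among themselves: its description mentions overexpression of ZNF300, while its title and phenotype name only the resistant line. On both arrays the epithelial keratin KRT18 (14.50 on the array labelled A549/DDP and 13.12 on the A549 array) and the aldo-keto reductase AKR1B10 (15.38 and 15.04) were far above the array median, as was KRT8. The junction protein CDH1 (2.52 and 7.30) and the epithelial adhesion protein EPCAM (4.68 and 7.05) were above the median on the A549 array alone, and KRT19 and ALDH1A1, an epithelial keratin and a listed marker of A549, were under it on both. Of 3 haematopoietic markers PTPRC and SPI1 were under the median on both arrays and CD3E (6.93 on the array labelled A549/DDP and 5.72 on the A549 array) was above it on the first alone. All 3 endothelial markers were under it on both arrays, as were the fibroblast markers COL3A1 and PDGFRB, while COL1A1 (9.77 and 8.79) was above it on both. Of 3 lung alveolar markers, SFTPB (8.01 and 7.70 in the same order of arrays) was above it on both and SFTPC under it on both. NKX2-1 (6.64 and 4.16) was above it on the array labelled A549/DDP alone. AKR1C1, another listed marker of A549, was far above it on both (14.90 and 15.25).

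Of the 10 neighbours, 8 had a higher and 2 a lower signal with A549/DDP RNA, where 50.4% of the 13159 expressed genes were higher by any amount. Expressed means that a gene reached the array median, the floor, on at least 1 array. Their median difference in log2 signal was 0.61, a fold of 1.53, beside a median of 0.00 over all expressed genes. At least 1.5-fold higher were 5 of the 10, against 15.6% of all expressed genes, and 2 were past 2-fold, against 6.13%. None was lower by 1.5-fold, a drop seen in 18.0% of expressed genes. The 3-fold threshold of the study was reached by 0 members, against 2.14% of expressed genes upward and 2.18% downward. Differences ran from -0.18 to 1.29 with an SD of 0.51 over the 10 genes, so sizes were uneven within the group. The differences given by several probe sets of 1 gene, above the floor on both arrays, had a median SD of 0.27 (5336 genes). This is a spread between probe sets of the same array pair and holds no error between cultures or arrays. Of the 10 members, 7 had a difference beyond that value in size. The share of all expressed genes beyond it was 63.0%, so this count does not set the members apart.

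LANCL2 and VOPP1, which follow EGFR directly among the expressed genes, had the largest differences of the 10. VOPP1 encodes a small membrane protein of vesicles. Its log2 signal was 11.50 on the array labelled A549/DDP and 10.21 on the A549 array, a fold of 2.45, by its 1 probe set. LANCL2 encodes a membrane-associated protein of the lanthionine synthetase-like family. By the probe set used for the gene, LANCL2 had a log2 signal of 9.47 on the array labelled A549/DDP and 8.26 on the A549 array, a fold of 2.31. A second probe set of LANCL2 (9.20 and 8.40 in the same order of arrays) gave a fold of 1.75, and the third (6.03 and 2.17) did not reach the floor on either array, which leaves it without a fold. EGFR itself stood at 12.34 on the array labelled A549/DDP and 11.01 on the A549 array, a fold of 2.52. By the probe set used for each, the 3 genes EGFR, LANCL2 and VOPP1 lay within a narrow range, with an SD of 0.06 around a median difference of 1.29. Other probe sets of LANCL2 and EGFR widen that range. EGFR was less even among its own 9 probe sets: of the other 2 above the floor on both arrays, 1 gave 11.42 and 10.18, a fold of 2.36, but the next gave 9.73 and 9.55, a fold of 1.13. A further EGFR probe set went the other way, at 5.60 on the array labelled A549/DDP and 7.06 on the A549 array, and with the first value raised to the floor its difference was -0.87.

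**Figure D1:**
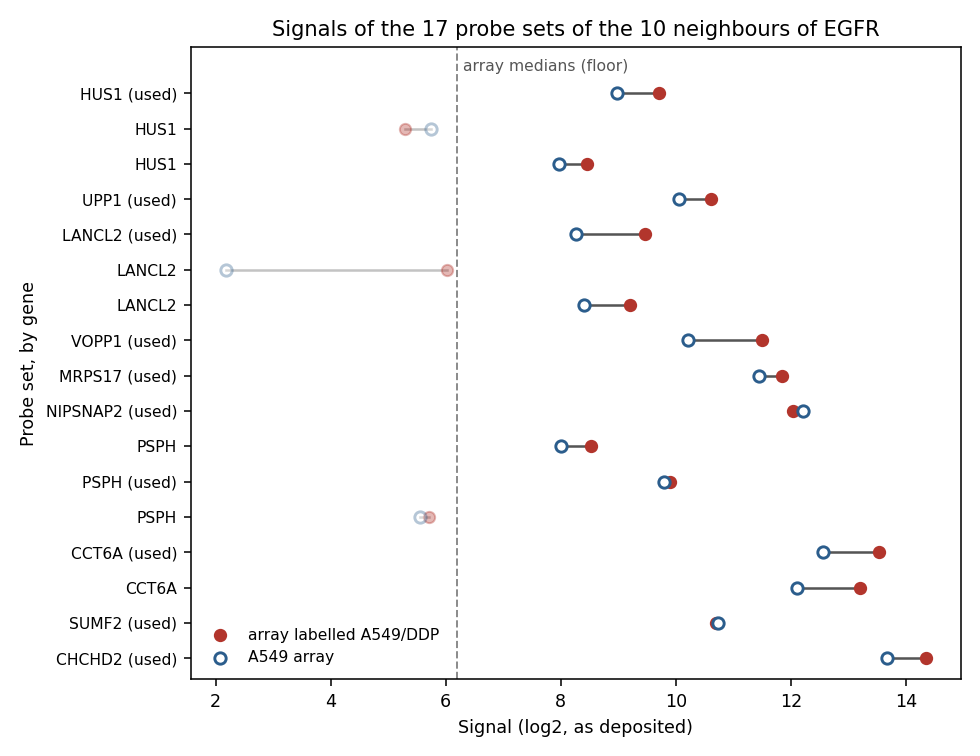
Log2 signal of the 17 probe sets of the 10 genes, with filled red points for the array labelled A549/DDP and open blue points for the A549 array, 1 array each. The line in each row joins the 2 values, faint rows are the 3 probe sets that did not reach the floor, and the widest gaps above the floor are those of VOPP1 and LANCL2.

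HUS1 and UPP1 lie on the other side of EGFR, towards the tip of the short arm. HUS1 is a subunit of the ring-shaped 9-1-1 clamp, which is loaded at damaged DNA and helps to activate the ATR checkpoint kinase. Its log2 signal was 9.70 on the array labelled A549/DDP and 8.97 on the A549 array, a fold of 1.66. A second probe set of HUS1 (8.46 and 7.97) gave 1.40-fold, and the third, at 5.28 and 5.74, did not reach the floor on either. UPP1, uridine phosphorylase, splits uridine into uracil and ribose phosphate. UPP1 had a log2 signal of 10.61 on the array labelled A549/DDP and 10.05 on the A549 array, a fold of 1.47 that lay just under 1.5-fold.

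Between VOPP1 and the centromere the differences changed from gene to gene. CCT6A, a subunit of the chaperonin that folds actin and tubulin, had a log2 signal of 13.53 on the array labelled A549/DDP and 12.55 on the A549 array, a fold of 1.97. Its second probe set (13.19 and 12.10) gave 2.13-fold, the closest agreement among the 4 members with several probe sets. CHCHD2, a mitochondrial intermembrane space protein that also acts in the nucleus, had a log2 signal of 14.35 on the array labelled A549/DDP and 13.68 on the A549 array, a fold of 1.59. MRPS17, a protein of the small mitochondrial ribosomal subunit, had 11.84 on the array labelled A549/DDP and 11.45 on the A549 array, a fold of 1.31.

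The remaining 3 genes hardly differed. PSPH, the phosphatase of the last step of serine synthesis, had a log2 signal of 9.90 on the array labelled A549/DDP and 9.79 on the A549 array, a fold of 1.08, while its second probe set gave a difference of 0.53, or 1.44-fold, and the third was under the floor. SUMF2, a paralogue of the enzyme that activates sulfatases in the endoplasmic reticulum, had 10.70 on the array labelled A549/DDP and 10.74 on the A549 array, a difference of -0.04. NIPSNAP2, a mitochondrial protein that takes part in the removal of damaged mitochondria, had 12.04 on the array labelled A549/DDP and 12.22 on the A549 array, a difference of -0.18. These 3 values are smaller than the median SD between probe sets of 1 gene. Between consecutive members the largest steps were at SUMF2, 1.01 below its neighbour CCT6A on the log2 scale of differences, and at MRPS17, 0.90 below VOPP1. CHCHD2, next to SUMF2 on the other side, was 0.71 above it.

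**Figure D2:**
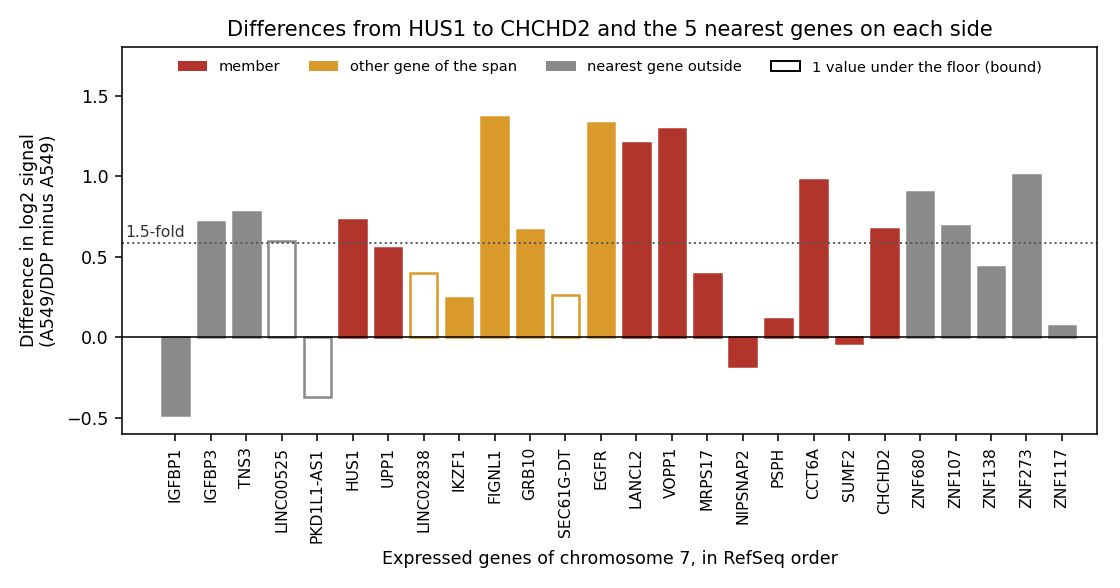
Difference in log2 signal, array labelled A549/DDP minus A549 array, for the 16 expressed genes from HUS1 to CHCHD2 and the 5 nearest expressed genes on each side, in RefSeq order. Open bars have 1 of the 2 values under the floor and are lower bounds in size, and the bars of SUMF2 and NIPSNAP2 lie just below 0 between the higher bars of VOPP1, CCT6A and CHCHD2.

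The start regions of MRPS17, NIPSNAP2, SUMF2 and CHCHD2 are shown because MRPS17 and NIPSNAP2 are consecutive members with unlike differences (0.39 and -0.18), as are SUMF2 and CHCHD2 (-0.04 and 0.67). Each window runs from 250 bases before the RefSeq start to 50 after it on GRCh38.p14, read 5′ to 3′ on the strand of the gene. Capitals mark the letters of 7 motifs searched on both strands, none of which overlap in these 4 windows. The motifs were CCGGAAG for the ETS family, GGGCGG for SP1, CCAAT for NFY, AAGATGGC for YY1, TGATGNAA for ATF4, TATAAA for the TATA box and the core letters of NRF1, which are the last capitals in the SUMF2 window.
MRPS17 (chr7:55951627-55951926, plus strand): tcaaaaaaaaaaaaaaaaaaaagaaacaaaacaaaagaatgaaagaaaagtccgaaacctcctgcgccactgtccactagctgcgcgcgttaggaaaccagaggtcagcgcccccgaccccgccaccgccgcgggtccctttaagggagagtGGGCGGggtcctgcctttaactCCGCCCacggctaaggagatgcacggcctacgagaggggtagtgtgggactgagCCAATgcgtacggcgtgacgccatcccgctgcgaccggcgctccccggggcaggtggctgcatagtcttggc
NIPSNAP2 (chr7:55964335-55964634, plus strand): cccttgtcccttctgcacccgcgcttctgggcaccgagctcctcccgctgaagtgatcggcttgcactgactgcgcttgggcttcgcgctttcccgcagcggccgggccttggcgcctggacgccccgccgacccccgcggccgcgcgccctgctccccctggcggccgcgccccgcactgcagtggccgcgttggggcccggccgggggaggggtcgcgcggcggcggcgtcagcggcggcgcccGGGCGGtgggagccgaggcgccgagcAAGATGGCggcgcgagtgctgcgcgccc
SUMF2 (chr7:56064036-56064335, plus strand): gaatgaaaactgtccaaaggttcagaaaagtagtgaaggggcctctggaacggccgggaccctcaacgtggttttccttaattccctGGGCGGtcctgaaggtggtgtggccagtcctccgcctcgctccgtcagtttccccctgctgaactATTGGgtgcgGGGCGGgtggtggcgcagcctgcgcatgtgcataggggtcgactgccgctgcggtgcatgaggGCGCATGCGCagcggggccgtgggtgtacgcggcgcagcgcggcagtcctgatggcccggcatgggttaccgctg
CHCHD2 (chr7:56106427-56106726, minus strand): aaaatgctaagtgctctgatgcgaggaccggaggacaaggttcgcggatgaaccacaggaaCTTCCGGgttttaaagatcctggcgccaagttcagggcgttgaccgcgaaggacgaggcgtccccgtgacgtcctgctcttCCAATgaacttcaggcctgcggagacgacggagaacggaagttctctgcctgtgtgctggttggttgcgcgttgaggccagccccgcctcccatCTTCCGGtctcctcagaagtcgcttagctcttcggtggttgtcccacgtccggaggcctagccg

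SUMF2 and MRPS17 each held SP1 and NFY letters, SUMF2 also the NRF1 letters, NIPSNAP2 SP1 and YY1 letters, and CHCHD2 ETS letters at 2 places and NFY letters. Such letters are common: SP1 letters were in 45.0%, NFY in 34.6%, ETS in 10.3%, YY1 in 2.89% and NRF1 in 1.24% of the 35116 windows of all genes. ATF4 letters (3.62% of windows) and TATA letters (11.5%) were in none of the 4. Of the other members, UPP1 had 3 windows and VOPP1 had 7. HUS1, LANCL2, PSPH and CCT6A were not matched. A match is a description of letters and not a binding site.

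The other expressed genes of the same span were all higher. RefSeq orders 29 measured genes between HUS1 and CHCHD2, ends included, of which 13 did not reach the floor and 16 were expressed. Besides the 10 members these were 6 genes, with a median difference of 0.53, and 3 of the 6 were at least 1.5-fold higher. That median was 0.22 with the median over probe sets, which left 4 genes, and 1.33 with the floor at the 75th percentile, which left 3. FIGNL1, an ATPase of homologous recombination, had a log2 signal of 11.57 on the array labelled A549/DDP and 10.20 on the A549 array, a fold of 2.58. EGFR was given above, and GRB10, an adaptor that binds the insulin receptor, had 12.70 on the array labelled A549/DDP and 12.03 on the A549 array, a fold of 1.59. IKZF1, a lymphoid transcription factor, differed little, at a log2 signal of 7.44 on the array labelled A549/DDP and a difference of 0.24. The non-coding LINC02838 and SEC61G-DT had their A549 value under the floor, so LINC02838 was at least 1.32-fold and SEC61G-DT higher by a log2 difference of at least 0.26. These 6 belong to the same high stretch that the members were taken from, and their direction is no independent measure of it.

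Outside the span the differences were mixed on the side of HUS1 and upward in the next 5 expressed genes after CHCHD2. Nearest refers here to the order of expressed genes and not to distance in bases, and the centromere lies on that side of CHCHD2. The stretch chosen for its high median, from which the members were taken, may reach past HUS1 or CHCHD2. Genes of either flank may thus have been part of that choice, and their direction is no independent measure of the region. Of the 5 nearest expressed genes before HUS1, TNS3, a focal adhesion protein, was 1.71-fold and IGFBP3, a binding protein of insulin-like growth factors, 1.64-fold higher on the array labelled A549/DDP, and LINC00525 was at least 1.51-fold higher. IGFBP1, which lies beside IGFBP3, was 1.40-fold lower, and PKD1L1-AS1 at least 1.29-fold lower. Beyond CHCHD2 all 5 nearest expressed genes were zinc-finger genes and all were higher: ZNF273 2.01-fold, ZNF680 1.87-fold, ZNF107 1.62-fold, ZNF138 1.35-fold and ZNF117 1.05-fold. The median of the 5 was 0.69, that of the nearest 10 was 0.42, that of the nearest 20 was 0.07 and that of the nearest 40 was 0.03.

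Before HUS1 the median of the nearest 5 was 0.60, that of the nearest 10 was -0.05 with 5 higher and 5 lower, that of the nearest 20 was 0.38 and that of the nearest 40 was 0.30. These medians rest on few genes, with an SD of 0.62 over the nearest 5 and 0.59 over the nearest 10. The median of the nearest 5 is the value of LINC00525, which is a bound. No pattern with distance from HUS1 was tested. The 190 expressed genes that precede HUS1 on chromosome 7 had a median difference of 0.31, a fold of 1.24, and 70.0% of them were higher in the cells labelled A549/DDP. At least 1.5-fold higher were 60 of the 190 (31.6%). Cut into 5 consecutive blocks of 38 genes, their medians lay between 0.28 and 0.36. The shares at least 1.5-fold higher were less even, at 39.5%, 15.8%, 36.8%, 34.2% and 31.6% in chromosome order, beside 15.6% of all expressed genes. Higher by any amount were 57.9% in block 1 and between 68.4% and 76.3% in the other blocks. The 420 expressed genes that follow CHCHD2, in the direction of the long arm, had a median of -0.05, with 192 (45.7%) higher and 47 (11.2%) at least 1.5-fold higher. Over 12517 expressed genes of the other chromosomes the median was 0.00 and 50.2% were higher. The 16 expressed genes from HUS1 to CHCHD2, with a median of 0.61, thus had a higher median than the genes before HUS1, which in turn had a higher one than the genes after CHCHD2. No test was made of these steps, since each line has 1 array. The span belongs to the stretch chosen for its high median, so its own higher median is no independent result.

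**Figure D3:**
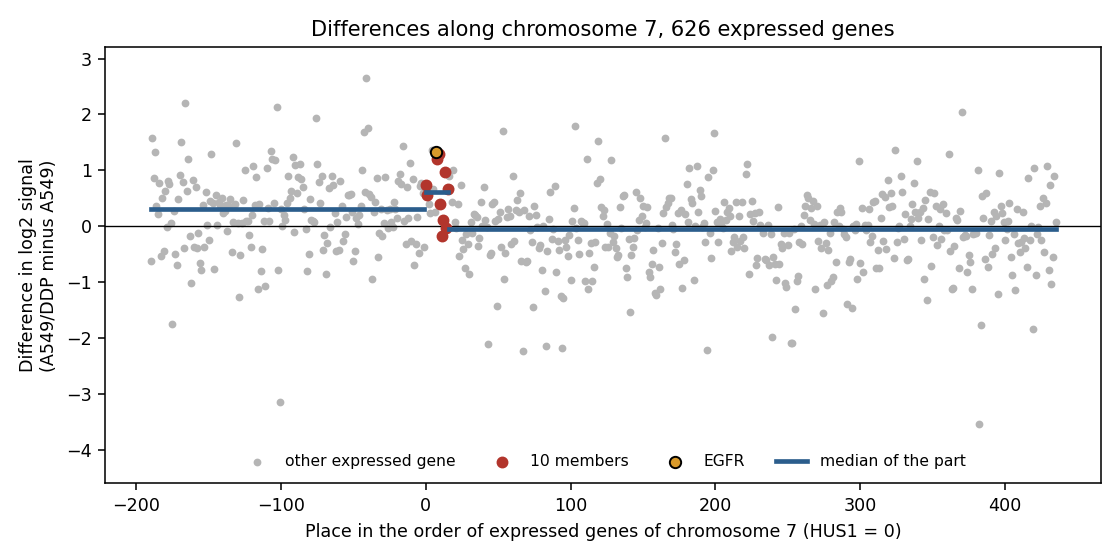
Difference in log2 signal, array labelled A549/DDP minus A549 array, for the 626 expressed genes of chromosome 7 in RefSeq order, with HUS1 at place 0 and short-arm genes to its left. Red points are the 10 members, the ringed point is EGFR, and the blue lines are the medians of the parts: 0.31 before HUS1, 0.61 from HUS1 to CHCHD2 and -0.05 after CHCHD2.

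The data hold RNA alone. DNA copy number was not measured, and its part in these differences was not tested. Within the span, the single members ranged between 1.13-fold lower (NIPSNAP2) and 2.45-fold higher (VOPP1).

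For 8 members, expressed genes that work with them or resemble them were measured elsewhere in the genome, and 3 of these partner genes (CHCHD3, COX19 and MRPS33) also lie on chromosome 7, outside the span. Of 66 expressed partner genes 9 (13.6%) were higher by 1.5-fold or more in the cells labelled A549/DDP and 5 were lower by as much, with a median difference of 0.12. The members were taken from a stretch chosen for its high differences, so a member above its partners is no independent result. CCT6A had a higher difference than all 7 expressed genes of its chaperonin list, whose median was 0.27. That list names 8 genes, of which TCP1 was not measured by a probe set that names 1 gene. Of that list CCT5 was 1.60-fold higher, and CCT6B, the testis-enriched paralogue of CCT6A, was 3.11-fold lower. CHCHD2 likewise had a higher difference than all 7 expressed genes of the list of proteins with paired cysteine motifs (median 0.34), of which CHCHD3, a cristae protein, was 1.43-fold higher and COX19, an assembly factor of cytochrome oxidase, 1.45-fold lower. MRPS17 was above 21 of 26 other mitochondrial ribosomal genes, listed by symbols that begin with MRPS (median 0.04). Among these MRPS11 was 1.95-fold higher and MRPS6 1.64-fold lower.

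Of the 7 expressed partners of HUS1, 5 were higher. Their median was 0.79 over the 7 genes, above the 0.73 of HUS1 itself, and 4 of the 7 were at least 1.5-fold higher. The checkpoint kinase CHEK1 was 3.45-fold and TOPBP1, which helps to activate ATR, 2.38-fold higher, while the second clamp subunit RAD1 was 1.73-fold higher and RAD9A 1.11-fold lower. RHNO1, also on the list, was 1.97-fold higher. The clamp loader subunit RAD17 was 1.14-fold lower, and ATR itself was 1.08-fold higher. For UPP1, the 5 expressed genes of pyrimidine salvage had a median of 0.04, although TK1, a thymidine kinase of S phase, was 3.35-fold higher, and the X-linked UPRT was 1.63-fold lower. The partner lists of the members that hardly differed were mixed. Serine synthesis genes had a median of -0.14 over 5 genes beside 0.11 for PSPH, with SHMT2 1.24-fold higher and PSAT1 at a log2 difference of -0.26. The sulfatase list of SUMF2 had a median of 0.34 over 7 genes, with ARSB 1.51-fold higher and the X-linked IDS 1.74-fold lower. NIPSNAP1 and NIPSNAP3A, the 2 expressed relatives of NIPSNAP2, were 1.05-fold and 1.32-fold higher. Of the 2 listed relatives of LANCL2, LANCL3 did not reach the floor on either array. LANCL1 was not measured by a probe set that names 1 gene. No list was set for VOPP1.

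**Figure D4:**
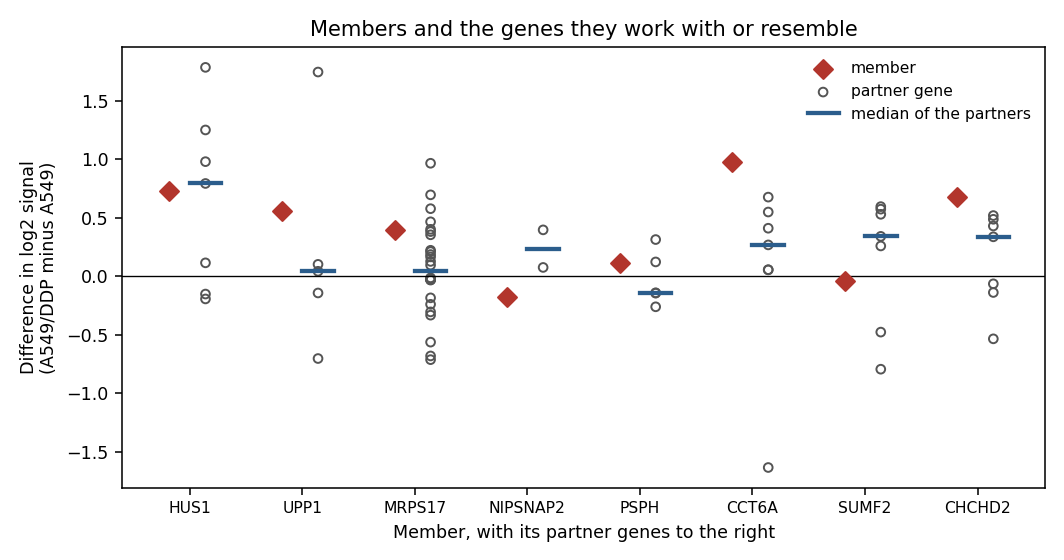
Difference in log2 signal, array labelled A549/DDP minus A549 array, for 8 members (red diamonds, left) and the expressed genes of their partner lists (open circles, right, with the median as a blue line). The diamonds of CCT6A and CHCHD2 lie above every expressed partner, that of HUS1 lies near the median of its partners, and those of NIPSNAP2 and SUMF2 lie below theirs. The members come from the stretch chosen for its high median.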

How the data were processed

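RNA of A549/DDP and A549 cells was read on 1 HG-U133 Plus 2.0 array each. The authors deposited 1 log2 value for each of 54675 probe sets. For these values MAS5 and affy are named in the processing notes of the submitters (no versions), and SCAN with UPC in the methods. The values had the form of MAS5 signals: after leaving out 2% at each end, the mean linear signal was 500.1 on both arrays. Such signals scatter at low brightness. A deposited fold table of other cells (A549-LV5 and A549-ZNF300), which holds the authors' fold changes, was not used, nor were the 4 signal and call columns in it.

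Probe sets with 1 gene (41097, of which 41043 matched RefSeq by gene ID) were named, and none of the 1801 with several genes listed a member. A gene took the probe set with the highest mean. Values under the array median (6.18 for A549/DDP and 6.22 for A549, controls left out) were raised to it, and such folds are bounds. Gene order and promoter windows came from RefSeq (GRCh38.p14). No test or p-value was computed, since each line has 1 array. The number of arrays limits the precision. Named were the members, the expressed genes of the span, the 5 nearest on each side and the 2 largest differences of each partner list. RAD1, RAD9A, RAD17, ATR, RHNO1, MRPS33 and the split of the short arm were added after their values were seen. The members and lists were chosen with earlier results of these data known. On simulated data in which the members had a set shift and no scatter, the steps returned that shift. This checks the computation alone and not its precision. Alternatives were 3 scalings, 3 floors, 3 probe set rules, a 2-fold threshold and the mean. Python 3.11.15, pandas 2.3.3, numpy 2.4.6 and statsmodels 0.14.6 were used.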

Additional observations from a re-analysis of the deposited data

How the results depend on the processing

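The 10 neighbours kept their direction under the alternatives: 8 were higher and 2 lower in each of the 9 settings of scaling, floor and probe set. SUMF2, 1 of the 2 lower, was in effect unchanged after median centring (-0.0005). None was at least 3-fold higher. Their median difference ranged from 0.54 to 0.65, and between 4 and 6 genes were at least 1.5-fold higher. Over all genes kept in the same settings that share ran from 13.8% (floor at the 75th percentile) to 24.2% (no floor). With a 2-fold threshold 2 were past it, against 6.13% of expressed genes. Of 90 values of single members, 85 moved by less than the SD between probe sets and 5 by more, 3 in LANCL2 (lowest 0.81) and 2 in PSPH (highest 0.53). HUS1 (0.49) did not reach 1.5-fold by its other probe set, and UPP1 was over it (0.59) after median centring. The median of the other genes of the span rested on few genes: it was 1.33 with the floor at the 75th percentile, which left 3 genes, and 0.22 with the median over probe sets, which left 4. The median before HUS1 ranged from 0.18 to 0.40 and that after CHCHD2 from -0.12 to -0.02, settings added after seeing the data. No paired analysis was possible because each line has 1 array, and no replicate could be left out.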
